A study of Mus musculus with 8 samples.

Results

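Integrins, adhesion receptors and the proteins that tie them to actin were compared between mouse macrophages labelled as double knockouts of the Mediator kinase genes Cdk8 and Cdk19 and their controls. The 37 genes were chosen by name, with earlier results of these data known. Each matched 1 row of the 34432 rows of the deposited table by its symbol. They hold 9 integrin alpha chains, 6 integrin beta chains, 8 adhesion receptors of other families, 11 adaptors, 2 kinases and the protein 4.1 gene Epb41l3. The libraries were made from polyadenylated RNA of macrophages that had been raised in a dish from mouse bone marrow and were collected on day 7 as M0 cells without treatment. The 4 double knockout libraries came from mice with Cdk8 flox/flox, Vav-iCre and Cdk19null, and the 4 control libraries from VavCre mice. Both groups therefore carry a Cre recombinase under the Vav promoter of blood-forming cells. The sources used here give no age for the mice. Cdk8 and its close relative Cdk19 encode the cyclin-dependent kinases of Mediator, the complex through which transcription factors reach RNA polymerase II. Values are the authors' normalized read counts, and every fold change is double knockout over control on the log2(value + 1) scale.

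Integrins are pairs of an alpha and a beta chain that span the membrane. Outside the cell they bind matrix proteins or immunoglobulin-type receptors on other cells, and inside it talin and kindlin bind the beta tail and switch the receptor on, while vinculin, paxillin, zyxin and the complex of integrin-linked kinase, PINCH and parvin connect it to actin. In macrophages the beta2 integrins serve phagocytosis of complement-coated particles and firm adhesion, and the alpha v integrins bind vitronectin, osteopontin and the bridging protein of apoptotic cells Mfge8.

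Reads recovered from the normalized values and summed over genes came to 17856715 to 21353207 per library. Cdk19 had 396, 392, 361 and 342 in double knockouts 1 to 4, against 1299, 1295, 1530.3 and 1682 in controls 1 to 4 (log2 -1.95, SE 0.10; exact permutation p = 0.0286, two-sided, the smallest that 4 against 4 can give). Cdk8 had 429, 309, 357 and 294 in double knockouts 1 to 4, against 466, 449, 408 and 432 in controls 1 to 4 (log2 -0.35, limma adjusted p = 0.0374; exact permutation p = 0.0571), a call lost under several alternatives (adjusted p up to 0.198), and because exons outside the floxed part are counted, this total does not check the deletion. Nothing in the labels ties the libraries of a group to different mice or dishes. The p-values therefore speak of the scatter among these libraries, which may be technical. The double knockouts fell into 2 pairs: the chi-square per gene was 8.2 between libraries 1 and 2 and 9.29 between 3 and 4, against 19.5 to 26.7 across the pairs, and controls ranged more widely, between 9.43 and 38.2 (controls 1 and 4). All 12 macrophage markers were called, 8 higher, among them Mertk (log2 1.08) and C1qa (log2 0.65), and 4 lower, among them Csf1r (log2 -0.80) and Lyz2 (log2 -0.73). Their sum was 360051 to 382288 in double knockouts and 387836 to 428629 in controls, with Lyz2 the largest single part of the difference. Of 8 monocyte markers 4 fell and none rose (sums 606 to 727 in double knockouts, 2469 to 3049.6 in controls), and of 9 neutrophil markers tested 8 fell and none rose (sums over 11 markers 471 to 776 in double knockouts, 1961 to 3484 in controls). Of the called markers, Hp (monocyte) and Camp (neutrophil) met the filter for low values mainly through the controls, where they are high. Bulk RNA does not separate fewer cells of a type from less RNA per cell.

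Most adhesion genes were lower in the double knockout, and a small group rose, some of it steeply. Epb41l3, the integrin beta chain gene Itgb3 and the receptor gene Vcam1 rose 18.9-fold, 10.5-fold and 5.39-fold, and Pecam1, Itga9 and Itgax rose less. The immunoglobulin-type ligands Icam1, Icam2 and F11r, the chains Itga4, Itga6 and Itgb2, the hyaluronan receptor gene Cd44 and the selectin ligand gene Selplg were among those that fell. A gene was tested where its value was at least 10 in at least 4 libraries, which 35 of the 37 members met, and called at a Benjamini-Hochberg adjusted p under 0.05 over all 11675 genes tested (limma). Of the 35, 6 were called higher and 20 lower, together 74.3%, where 46.6% of all genes tested were called, 22.9% higher and 23.8% lower. The groups did not overlap for 27 of the 35, 77.1%, against 42.9% of all genes tested. Changes of at least 2-fold were called for 4 higher and 6 lower members, where such changes made up 3.68% and 7.2% of all genes tested. Sizes depended on the settings: over the alternatives Itgb3 ran from log2 2.87 to 3.50 and Vcam1 from 2.03 to 2.55. Pecam1 (0.906 to 1.38), Icam2 (-1.19 to -0.986) and Cd44 (-1.06 to -0.942) were under 2-fold in some of them. The median log2 fold change was -0.35 over the 35 and 0.01 over all genes tested. Since the members were chosen with earlier results of these data known, these shares describe the list and test nothing about it. Monocyte and neutrophil markers fell in the same comparison, and their part in these counts was not tested. With double knockouts 1 and 2 alone against the controls 6 members were called higher and 17 lower, and with 3 and 4 alone 6 and 19. No called member passed the filter through 1 group alone: 25 of the 26 had a value of at least 10 in all 8 libraries, and the exception, Epb41l3, in 7.

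**Figure D1:**
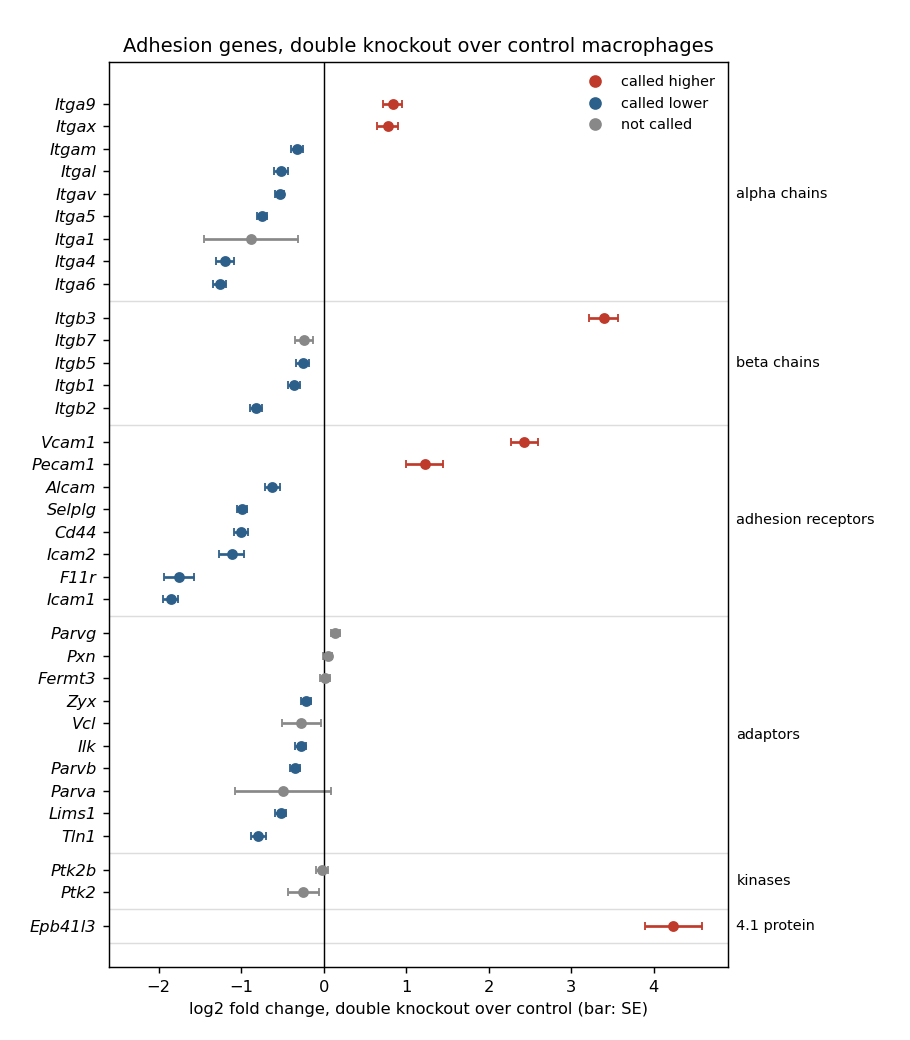
Log2 fold change of double knockout over control for the 35 members tested, with its standard error as a bar, grouped by role. Red points were called higher, blue points lower and grey points not called; Epb41l3 (4.24), Itgb3 (3.39) and Vcam1 (2.43) stand far to the right, and Icam1 (-1.85) and F11r (-1.76) farthest to the left.

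Among the beta chains, Itgb3 rose while the abundant chains fell. Itgb3 pairs with alpha v in macrophages and osteoclasts and with alpha IIb in platelets. Its values were 381, 468, 376 and 398 in double knockouts 1 to 4, against 38.3, 29, 47.7 and 37.6 in controls 1 to 4 (log2 fold change 3.39, SE 0.17, adjusted p = 2.56e-08). Every double knockout library lay far above every control. Itgb3 (ENSMUSG00000020689) lies on chromosome 11, 104608000 to 104670476 (mm10). Itgb2, the common chain of the leukocyte integrins, had 9706, 9495, 8309 and 8405 in double knockouts 1 to 4, against 14569, 15919.7, 16345 and 16685 in controls 1 to 4 (log2 fold change -0.82, SE 0.07, adjusted p = 2.06e-06). Itgb1, the partner of most matrix-binding alpha chains, had 12681, 13507, 11108 and 11977 in double knockouts 1 to 4, against 14647, 14903, 16372 and 17182 in controls 1 to 4 (log2 fold change -0.36, SE 0.08, adjusted p = 0.00225). Both chains were lower in every double knockout library than in every control, and within the double knockouts libraries 1 and 2 were above 3 and 4 for both. Itgb5, a second partner of alpha v, had 14513, 15298, 12706 and 12888 in double knockouts 1 to 4, against 14803, 18198, 16362 and 16648 in controls 1 to 4 (log2 fold change -0.25, SE 0.08, adjusted p = 0.0218). Here double knockout 2 lay inside the control range, and the call was lost with double knockouts 1 and 2 alone (adjusted p = 0.242), with each pair averaged (0.0807), without double knockout replicate 3 or 4 (0.0678 and 0.0662), without control replicate 2 (0.0672) and without the trend and robust options (0.0579). Itgb7, which joins alpha 4 or alpha E, had 302, 264, 296 and 253 in double knockouts 1 to 4, against 317, 355, 294 and 348 in controls 1 to 4, and it was not called (log2 -0.24, SE 0.11, adjusted p = 0.104). Itgb8 was at 0 in all 8 libraries.

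Of 8 megakaryocyte and platelet markers 2 were tested: Pf4, a chemokine gene, rose (means 7901 in double knockouts and 4088 in controls, log2 0.95, SE 0.06, adjusted p = 1.49e-07), and Gp1ba was not called. The sum of the 8 was 7779 to 8050.2 in double knockouts and 3742 to 4343 in controls, nearly all of it Pf4. Itga2b, the platelet partner chain of Itgb3, had 5.83, 1.01, 0 and 14.6 in double knockouts 1 to 4, against 0, 0, 0 and 0 in controls 1 to 4. Gp9 and Gp1bb stayed under 10 in all libraries, with at most 2.92 and 2.01 in double knockouts and 0 in every control. Of 7 osteoclast markers, 5 were tested, of which Acp5 was called higher and Ocstamp and Mmp9 lower, and the calcitonin receptor gene Calcr was at 0 (sums 1286 to 1487 in double knockouts, 1324 to 1461 in controls). Most of each sum was Nfatc1 (means 1025 in double knockouts and 1085 in controls), which was not called. Ctsk was not called either (means 18.2 in double knockouts and 9.66 in controls). Mmp9 had 0.971, 9.05, 12 and 6.82 in double knockouts 1 to 4, against 111, 37.7, 46.6 and 84.9 in controls 1 to 4. It met the filter mainly through the controls, where it is high.

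The 3 tested alpha chains that pair with the beta2 chain did not move together. Itgal, the alpha chain of the receptor for intercellular adhesion molecules, had 3623, 3979, 3236 and 3268 in double knockouts 1 to 4, against 4417, 5223, 5149 and 5426 in controls 1 to 4 (log2 fold change -0.52, SE 0.08, adjusted p = 0.000383). Itgam, the alpha chain of complement receptor 3, had 15666, 17129, 14639 and 15812 in double knockouts 1 to 4, against 17892, 18810.3, 20643 and 21917 in controls 1 to 4 (log2 fold change -0.32, SE 0.07, adjusted p = 0.00399). For both, the lowest control stood above the highest double knockout, although the Itgam call was lost with double knockouts 1 and 2 alone (adjusted p = 0.0522). Itgax, the alpha chain of complement receptor 4 and known as CD11c, had 496, 497, 436 and 435 in double knockouts 1 to 4, against 253, 239.8, 339.6 and 264 in controls 1 to 4 (log2 fold change 0.77, SE 0.12, adjusted p = 0.000349), the reverse direction with no overlap. Per kilobase of annotated exon, Itgax made up 2.57% ± 0.134 of the summed level of Itgam, Itgal, Itgax and Itgad in double knockouts and 1.20% ± 0.170 in controls (SD, n = 4 each). Itgam made up 83.2% ± 0.733 in double knockouts and 82.7% ± 0.740 in controls. These shares were not tested. Itgad did not exceed 1.01 in any library. These 4 genes lie on chromosome 7: Itgam (128062640 to 128118491, mm10), Itgax (128129547 to 128150657) and Itgad (128154376 to 128223816) are neighbours with gaps of 11.1 and 3.72 kb, and Itgal (127296260 to 127335138) lies 728 kb before Itgam.

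Because Itgam and Itgax are neighbours that moved in opposite directions, their promoters are shown, from 250 bases before to 50 after the annotated start, on the plus strand, from RefSeq on GRCm38.p6 (chr7:128062390-128062689 and chr7:128129300-128129599). Capitals mark matches, on either strand, to the patterns searched: GAGGAAG (a PU.1-type ETS site), CCGGAAG (ETS), CCAAT (the CCAAT box), GGGCGG (Sp1 type), TGACTCA (AP-1), CACGTG (E-box) and the CArG box of SRF. Both ETS patterns end in the same 5 letters.
Itgam: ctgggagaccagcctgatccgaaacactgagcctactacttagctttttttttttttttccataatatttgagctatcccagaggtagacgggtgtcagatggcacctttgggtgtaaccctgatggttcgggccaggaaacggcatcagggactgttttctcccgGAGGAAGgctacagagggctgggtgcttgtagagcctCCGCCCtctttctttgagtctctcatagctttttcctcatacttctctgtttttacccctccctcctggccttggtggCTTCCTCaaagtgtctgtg
Itgax: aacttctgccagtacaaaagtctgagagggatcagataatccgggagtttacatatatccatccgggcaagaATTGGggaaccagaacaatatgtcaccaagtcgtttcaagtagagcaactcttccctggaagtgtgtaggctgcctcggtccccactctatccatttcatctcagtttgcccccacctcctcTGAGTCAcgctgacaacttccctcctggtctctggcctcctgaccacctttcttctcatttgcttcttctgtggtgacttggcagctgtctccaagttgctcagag
Itgam held GAGGAAG at 84 bases before the start and, on the other strand, after it, and 1 GGGCGG. Itgax held TGACTCA on the other strand at 56 bases before the start, 1 CCAAT, and no GAGGAAG in this window. Of 32851 promoter windows of this length, GAGGAAG was in 13.6%, TGACTCA in 5.2%, CCAAT in 37.4%, GGGCGG in 35.7%, CCGGAAG in 8.86%, CACGTG in 7.15% and the CArG box in 1.63%. A window was held for 25 of the 37 members, 32 windows in all. Of the 25, 7 had GAGGAAG in at least 1 window, 18 GGGCGG, 9 CCAAT, 4 TGACTCA, 2 CACGTG and 1 CCGGAAG. These counts are per gene over all its windows, and the shares above are per window, so they are not directly comparable. The CArG box was in 1 member, the vinculin gene Vcl.

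Among the alpha chains that bind matrix proteins and Vcam1, Itga4, Itga5, Itga6 and Itgav fell and Itga9 rose. Itga6, a laminin receptor chain, had 4561, 4665, 4021 and 4380.4 in double knockouts 1 to 4, against 9369.8, 10221, 10943 and 11828 in controls 1 to 4 (log2 fold change -1.26, SE 0.08, adjusted p = 1.26e-07). Itga4, which with beta1 binds Vcam1 and fibronectin, had 946, 1038, 846 and 952 in double knockouts 1 to 4, against 1839.8, 1997, 2219 and 2657 in controls 1 to 4 (log2 fold change -1.19, SE 0.11, adjusted p = 3.63e-06). Both fell more than 2-fold, with no overlap. Itga5, the chain of the classical fibronectin receptor, had 3866, 4005, 3790.2 and 3639.8 in double knockouts 1 to 4, against 5879, 6599, 6471 and 6701 in controls 1 to 4 (log2 fold change -0.74, SE 0.06, adjusted p = 1.4e-06). Itgav, the shared partner of beta1, beta3 and beta5, had 6757, 6112, 6708 and 6688 in double knockouts 1 to 4, against 9558, 9058, 9598 and 9826 in controls 1 to 4 (log2 fold change -0.53, SE 0.06, adjusted p = 1.26e-05). Double knockout 2 was the lowest for Itgav, and all 4 were below the controls. Itga9, which with beta1 also binds Vcam1, tenascin C and osteopontin, had 2061, 2274, 1656 and 1801 in double knockouts 1 to 4, against 1126, 960.0, 1018 and 1255 in controls 1 to 4 (log2 fold change 0.83, SE 0.11, adjusted p = 8.14e-05). All double knockouts exceeded all controls, and libraries 1 and 2 stood above 3 and 4. Itga1, a collagen receptor chain, had 6.8, 26.1, 4 and 8.77 in double knockouts 1 to 4, against 22.6, 11.6, 11.1 and 31.8 in controls 1 to 4 and was not called (log2 -0.88, SE 0.57, adjusted p = 0.231), and only 1 double knockout library was above 10. A change of this size was not detectable in Itga1 with this spread.

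Levels of different chains were set side by side per kilobase of the union of annotated exons, as mean ± SD of normalized reads per kilobase over 4 libraries a group. Itgam was the highest alpha chain, at 3147 ± 203 in double knockouts and 3944 ± 360.0 in controls, and Itga5 was next, at 775 ± 30.9 in double knockouts and 1299.9 ± 74.6 in controls. Itga6 stood at 488 ± 31.3 in double knockouts and 1173 ± 116 in controls, Itgav at 611 ± 28.3 in double knockouts and 885 ± 30.1 in controls and Itgal at 537 ± 53.1 in double knockouts and 769 ± 67.1 in controls. Itga6 was thus the lowest of these 5 in double knockouts and followed Itga5 in controls, where the means of Itga5 and Itga6 lay about 1 SD apart. The order depends on the length used: per longest coding transcript Itga6 came before Itga5 in both groups. By that length Itga6 followed Itgam in double knockouts, at 1022, above Itgav at 931, Itga5 at 873 and Itgal at 675. Below them in controls came Itga4 (67.6 ± 5.62 in double knockouts and 156 ± 25.4 in controls), Itga9 (253 ± 35.7 in double knockouts and 142 ± 16.9 in controls) and Itgax (97 ± 7.33 in double knockouts and 57.1 ± 9.33 in controls), whereas in double knockouts the order of these was Itga9, Itgax and Itga4. Among the beta chains, Itgb5 took 38.9% ± 0.502 of the summed level per kilobase in double knockouts and 33.6% ± 1.83 in controls (SD, n = 4 each). Itgb1 took 30.1% ± 0.700 in double knockouts and 27.9% ± 1.42 in controls. Itgb2 took 29.3% ± 0.697 in double knockouts, where it did not differ from Itgb1 beyond their spread, and 37.6% ± 0.466 in controls, where it came first. Itgb3, despite its rise, took 0.686% ± 0.0517 in double knockouts and 0.0469% ± 0.00975 in controls. The beta chain shares also depend on the length used. Per longest coding transcript Itgb1 took 30.3% ± 0.699 and Itgb2 28.4% ± 0.684 in double knockouts, with Itgb1 above Itgb2 in every double knockout library.

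**Figure D2:**
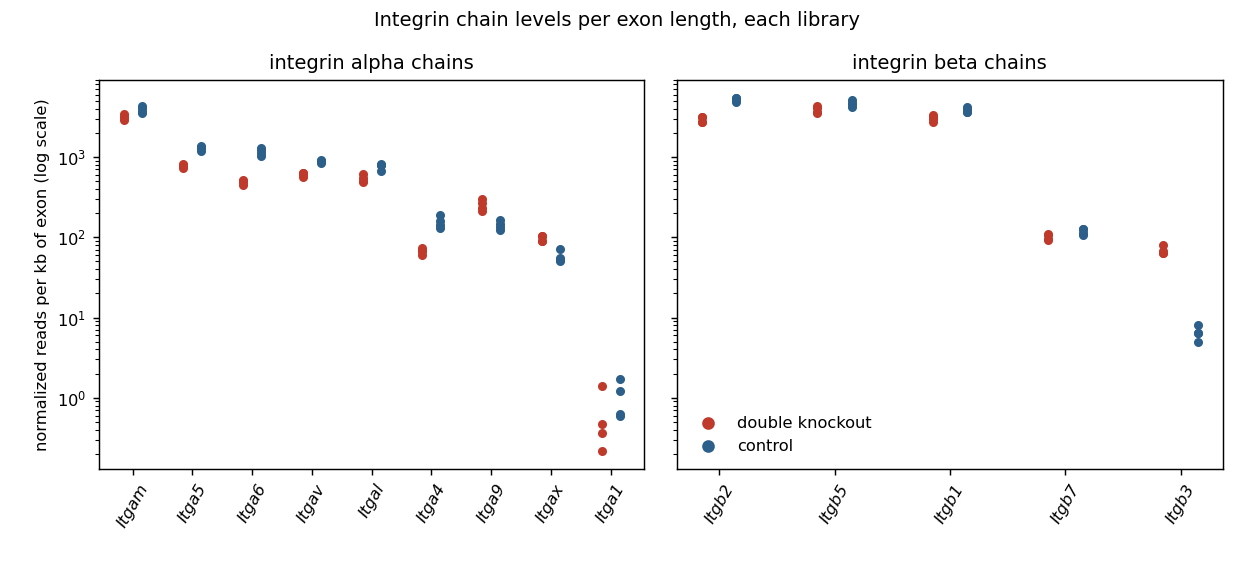
Normalized reads per kilobase of annotated exon, on a log scale, for the 9 alpha chains and the 5 beta chains with reads, each point 1 library, double knockouts in red and controls in blue. Itgb3 lies just below Itgb7 in double knockouts and far below it in controls, and Itga9 lies above Itga4 in double knockouts and near it in controls.

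The 3 members that encode immunoglobulin-type ligands of the Itgal-Itgb2 receptor all fell. Icam1, the main ligand, had 656, 593, 555 and 524 in double knockouts 1 to 4, against 2013, 2369.5, 2096 and 1933 in controls 1 to 4 (log2 fold change -1.85, SE 0.09, adjusted p = 1.82e-08). Icam2, a ligand known from endothelium and leukocytes, had 155, 118, 148 and 112 in double knockouts 1 to 4, against 272, 267, 345 and 271 in controls 1 to 4 (log2 fold change -1.12, SE 0.15, adjusted p = 9.43e-05). F11r, which encodes junctional adhesion molecule A, had 161, 193, 295 and 177 in double knockouts 1 to 4, against 808, 640.0, 716 and 581 in controls 1 to 4 (log2 fold change -1.76, SE 0.18, adjusted p = 8.82e-06). For each of them the highest double knockout lay below the lowest control, and double knockout 3 was the highest of its group for F11r. Icam4, a red cell ligand gene that begins 0.556 kb after Icam1 on chromosome 9, rose at low level (20.2 ± 6.07 in double knockouts and 7.79 ± 4.03 in controls, n = 4 each, log2 1.36, SE 0.48, adjusted p = 0.0367). Icam4 met the filter mainly through the double knockouts, where it is higher. Monocyte and neutrophil markers, whose sums are given above, fell in the same libraries, and their part in these falls was not tested.

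Vcam1 and Pecam1 rose. Vcam1, the ligand of alpha 4 and alpha 9 integrins, had 225, 274, 276 and 210.5 in double knockouts 1 to 4, against 47.2, 38.7, 47.7 and 45.3 in controls 1 to 4 (log2 fold change 2.43, SE 0.16, adjusted p = 2.77e-07). Of the chains that bind it, Itga4 fell and Itga9 rose, as given above. Pecam1, which encodes the homophilic receptor CD31, had 79.6, 97.5, 97 and 67.2 in double knockouts 1 to 4, against 40.3, 28, 36.6 and 38.6 in controls 1 to 4 (log2 fold change 1.22, SE 0.22, adjusted p = 0.0008). Double knockout 4 was the lowest of its group for both and still exceeded every control. Neither of the 2 endothelial markers tested was called, with sums over 7 markers of 89.3 to 183 in double knockouts and 119 to 234 in controls, and Tek, Emcn and Robo4 were at 0 in all libraries. Icam1 (ENSMUSG00000037405) lies on chromosome 9 (21015985 to 21028817, mm10), F11r (ENSMUSG00000038235) on chromosome 1 (171437535 to 171464603) and Vcam1 (ENSMUSG00000027962) on chromosome 3 (116109949 to 116129688).

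The promoters of Icam1 and F11r, the members with the 2 largest falls, are shown with the same marking (chr9:21015690-21015989 and chr1:171437311-171437610, plus strand, RefSeq, GRCm38.p6).
Icam1: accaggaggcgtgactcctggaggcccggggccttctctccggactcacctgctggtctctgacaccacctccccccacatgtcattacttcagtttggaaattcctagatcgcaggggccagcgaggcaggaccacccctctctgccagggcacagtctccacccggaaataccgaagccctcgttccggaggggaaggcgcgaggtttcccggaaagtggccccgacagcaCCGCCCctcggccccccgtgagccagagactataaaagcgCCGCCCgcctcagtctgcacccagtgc
F11r: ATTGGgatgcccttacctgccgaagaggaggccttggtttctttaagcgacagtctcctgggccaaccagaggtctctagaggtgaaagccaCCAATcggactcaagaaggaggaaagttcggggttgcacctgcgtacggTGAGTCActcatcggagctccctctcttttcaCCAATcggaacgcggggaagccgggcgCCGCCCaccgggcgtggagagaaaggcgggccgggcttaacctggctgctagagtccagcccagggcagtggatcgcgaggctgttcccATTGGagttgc
Icam1 held GGGCGG in the other orientation 17 bases before and 24 bases after the start, and none of the other patterns. F11r held 4 CCAAT matches, 1 GGGCGG and TGACTCA in the other orientation at 109 bases before the start.

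The remaining receptors fell. Cd44, which binds hyaluronan, had 5057, 6081, 5775 and 5788 in double knockouts 1 to 4, against 10122, 10864, 11718 and 12966 in controls 1 to 4 (log2 fold change -1.01, SE 0.08, adjusted p = 1.63e-06). Selplg, the P-selectin ligand of leukocytes, had 1754, 1737, 1723 and 1809 in double knockouts 1 to 4, against 3301, 3778, 3609 and 3289 in controls 1 to 4 (log2 fold change -0.99, SE 0.06, adjusted p = 1.68e-07). Alcam, which binds CD6 and itself, averaged 2597 ± 268 in double knockouts and 3989.7 ± 343 in controls (SD, n = 4 each, log2 -0.62, SE 0.09, adjusted p = 0.00012). No double knockout library reached a control for any of the 3.

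**Figure D3:**
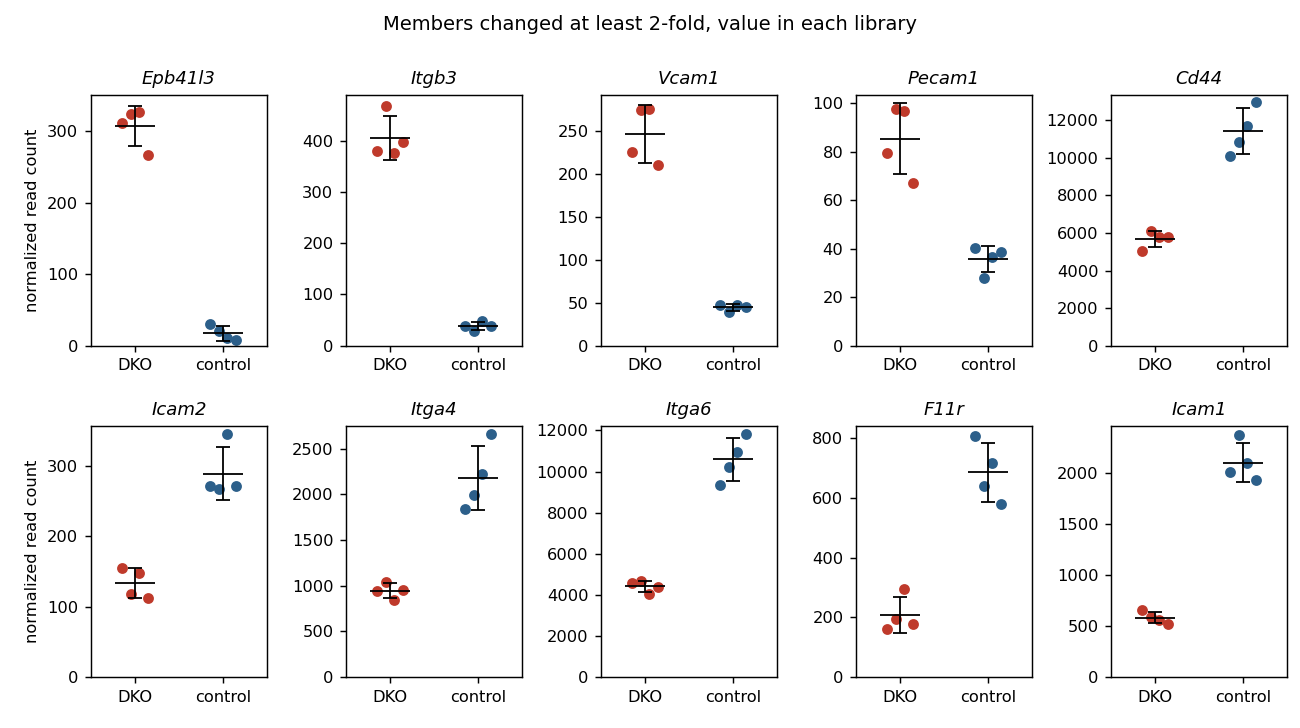
Normalized read count in each library for the 10 members called with a change of at least 2-fold, double knockout (DKO) left of control, each panel from 0, with the mean and SD in black. The groups do not overlap in any panel; the 4 rises are Epb41l3, Itgb3, Vcam1 and Pecam1.

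Of 10 adaptors tested, 5 fell (50%), none rose, and none of the called ones changed 2-fold, where 46.6% of all genes tested were called and 23.8% were lower. Their median log2 fold change was -0.28, beside -0.998 for the 8 adhesion receptors. Tln1, talin, which binds beta tails and activates them, had 7836, 8056, 7179 and 7191 in double knockouts 1 to 4, against 10687, 13619.8, 13999 and 14513 in controls 1 to 4 (log2 fold change -0.80, SE 0.09, adjusted p = 2.59e-05). Lims1, which encodes PINCH-1, averaged 2626 ± 126 in double knockouts and 3767 ± 247 in controls (log2 -0.52, SE 0.06, adjusted p = 4.99e-05). Its partner in the same complex, integrin-linked kinase (Ilk), averaged 1723 ± 111 in double knockouts and 2091 ± 84 in controls (log2 -0.28, SE 0.07, adjusted p = 0.00464). The groups of these 3 genes did not overlap. Of the parvins, the third component, Parvb averaged 1569.6 ± 56.2 in double knockouts and 1999 ± 67.7 in controls (log2 -0.35, SE 0.06, adjusted p = 0.000573). Parvg, the parvin of blood cells, whose gene begins 8.34 kb after Parvb on chromosome 15, averaged 3555 ± 139.6 in double knockouts and 3226 ± 98.4 in controls and was not called (log2 0.14, SE 0.06, adjusted p = 0.0581), although its groups did not overlap, and DESeq2 on the recovered reads called it (adjusted p = 0.0302). Parva had at most 25.1 in any library and was not called (adjusted p = 0.522). Zyx, a LIM protein of mature adhesions, averaged 1293 ± 16.4 in double knockouts and 1499.9 ± 39.1 in controls (log2 -0.21, SE 0.06, adjusted p = 0.0113), and its call was lost with either double knockout pair alone (adjusted p = 0.0568 and 0.0608) and with the pairs averaged (0.0627).

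Fermt3, Pxn, Vcl and both kinases did not pass the test. Fermt3, the kindlin of blood cells, averaged 5834 ± 90.3 in double knockouts and 5798 ± 369 in controls (log2 0.01, SE 0.06, adjusted p = 0.897). Pxn, paxillin, averaged 3494 ± 37.7 in double knockouts and 3385 ± 36 in controls (log2 0.05, SE 0.05, adjusted p = 0.481), with groups that did not overlap but lay close together. Vcl, vinculin, had 114, 152, 87 and 150.1 in double knockouts 1 to 4, against 105, 144, 151 and 210.2 in controls 1 to 4 (log2 -0.27, SE 0.24, adjusted p = 0.373), and its groups overlapped. Ptk2b, the kinase PYK2 of macrophage adhesion, averaged 8279.8 ± 395 in double knockouts and 8411 ± 723 in controls (log2 -0.02, SE 0.07, adjusted p = 0.843), and per kilobase of exon it stood at 1119 ± 53.4 in double knockouts and 1137 ± 97.7 in controls. Its paralogue Ptk2, focal adhesion kinase, stood at 38.8 ± 9.75 in double knockouts and 45.5 ± 9.34 in controls per kilobase and was not called either (log2 -0.25, SE 0.19, adjusted p = 0.32). Bcar1, the scaffold p130Cas, reached 10 in 2 libraries only and was not tested. Exons of 11 members share bases with another annotated gene, 9 of them with a gene on the opposite strand, and whether strand was used in quantification is not stated. The values of Vcl and Ilk are the less certain, since Vcl shares 2090 bases with Ap3m1, which reached 2371 in a library, and Ilk shares 2106 with Taf10, which reached 2284. Itga4 shares 1124 bases with Cerkl, which reached 129, and Itgam 3450 with Gm49368 on the same strand, which reached 94.3, both far below the member.

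Epb41l3 rose most of all members. It encodes protein 4.1B, a FERM-domain protein that ties membrane receptors such as cell adhesion molecule 1 (Cadm1) to the spectrin and actin skeleton. Its values were 312, 324, 327 and 267 in double knockouts 1 to 4, against 30.5, 20.3, 11.1 and 7.71 in controls 1 to 4 (log2 fold change 4.24, SE 0.34, adjusted p = 1.34e-06). Controls spread widely at these low values, and every double knockout library exceeded the highest control. The size of the rise depended on the settings at these low control values: the log2 fold change was 3.60 with a pseudocount of 10, 3.16 with TMM scaling on log2(CPM + 1), and 4.55 without control replicate 1, the highest control. Epb41l3 (ENSMUSG00000024044) spans 69075683 to 69289989 on chromosome 17 (mm10). RefSeq places 3 starts in the gene, and the most upstream promoter is shown (chr17:69075427-69075726, plus strand, GRCm38.p6), with GGGCGG matches in capitals at 64, 43 and 4 bases before the start.
Epb41l3: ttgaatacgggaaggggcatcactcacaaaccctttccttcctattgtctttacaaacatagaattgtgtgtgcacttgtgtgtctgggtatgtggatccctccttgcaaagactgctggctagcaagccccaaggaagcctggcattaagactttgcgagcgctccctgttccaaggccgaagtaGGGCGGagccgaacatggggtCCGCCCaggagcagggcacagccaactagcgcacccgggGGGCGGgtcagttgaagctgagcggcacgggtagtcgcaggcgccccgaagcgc
Of 11 other protein 4.1 and FERM genes and membrane partners tested, 3 were called, all of them higher (27.3%, where 46.6% of all genes tested were called and 22.9% were higher), and the median of the 11 on the log2 scale was -0.07. The share called was below that of all genes, and the share called higher was near that of all genes. Cadm1 itself averaged 8546 ± 578 in double knockouts and 4054 ± 424 in controls (log2 1.08, SE 0.08, adjusted p = 6.51e-07), Frmd6 1186 ± 91.1 in double knockouts and 726 ± 77.6 in controls (log2 0.71, SE 0.09, adjusted p = 7.74e-05), and Epb41, the red cell member of the family, 3675 ± 36.4 in double knockouts and 2828 ± 184 in controls (log2 0.38, SE 0.06, adjusted p = 0.000324).

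Other adhesion genes were read from lists made with earlier results of these data known, and their shares stand beside the 22.9% of all genes tested that were called higher and the 23.8% called lower. Of 13 further integrin chains only Itga8 was tested, and it was called lower, with 9.71, 14.1, 17 and 78 in double knockouts 1 to 4, against 67.8, 81.2, 105 and 79.1 in controls 1 to 4 (log2 -1.93, SE 0.52, adjusted p = 0.0101). Double knockout 4 lay inside the control range for Itga8. The other 12 chains did not exceed 14.6 in any library. Of 29 genes that activate or inactivate integrins, 6 rose (20.7%) and 4 fell (13.8%), both shares under those of all genes, with a median of 0.04. Dok2, an adaptor that binds phosphorylated tails, fell 1.93-fold (log2 -0.95, SE 0.07, adjusted p = 6.07e-07), as did Apbb1ip, which encodes the Rap1 effector that recruits talin (1.71-fold, log2 -0.78, SE 0.06, adjusted p = 9.74e-07), and Flna, filamin A, which competes with talin (1.83-fold, log2 -0.87, SE 0.09, adjusted p = 7.8e-06). Krit1, a Rap1-binding scaffold, rose 1.93-fold (log2 0.95, SE 0.07, adjusted p = 6.97e-07).

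Of 54 genes of adhesion signalling and actin linkage, 24 fell (44.4%) and 10 rose (18.5%), with a median of -0.18. Pak1, a kinase downstream of Rac, fell 2.84-fold (log2 -1.50, SE 0.09, adjusted p = 1.06e-07), Arhgef7, the exchange factor that binds it, 1.81-fold (log2 -0.85, SE 0.06, adjusted p = 3.7e-07), and Actn1, an actin crosslinker, 1.8-fold (log2 -0.85, SE 0.07, adjusted p = 1.5e-06). Palld, the actin scaffold palladin, rose 3.89-fold (log2 1.96, SE 0.11, adjusted p = 4.13e-08). Of 24 other leukocyte adhesion receptors tested, 8 fell (33.3%) and 6 rose (25.0%, near the share of all genes), with a median of -0.17. Of the 4 with the smallest adjusted p, Cadm1 rose, as given above. Emb, embigin, fell 5.22-fold (log2 -2.38, SE 0.12, adjusted p = 1.81e-08), the sialomucin gene Cd34 4.72-fold (log2 -2.24, SE 0.12, adjusted p = 4.96e-08), and Spn, which encodes the sialomucin CD43, 8.69-fold (log2 -3.12, SE 0.18, adjusted p = 7.89e-08).

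Ligands of these integrins moved in both directions: of 24 matrix ligands tested, 10 fell (41.7%) and 4 rose (16.7%), with a median of -0.55. Spp1, osteopontin, rose, with 62544, 62577, 60582 and 57589 in double knockouts 1 to 4, against 18797, 18038, 18573 and 16268 in controls 1 to 4 (log2 1.76, SE 0.06, adjusted p = 1.28e-09). Mfge8, the bridge to apoptotic cells, rose 4.54-fold (log2 2.18, SE 0.08, adjusted p = 2.22e-09), and Thbs1, thrombospondin 1, 4.46-fold (log2 2.16, SE 0.12, adjusted p = 5.26e-08). Tgfbi, a matrix protein bound by several integrins, fell 2.02-fold (log2 -1.01, SE 0.05, adjusted p = 2.93e-08). Fn1, the fibronectin gene, which was added after its values were seen, had 58.3, 69.4, 44 and 23.4 in double knockouts 1 to 4, against 267, 628, 327 and 326 in controls 1 to 4 (log2 -2.99, SE 0.34, adjusted p = 2.92e-05). Every control exceeded every double knockout for Fn1. Vtn, the vitronectin gene, was at 0 in all libraries.

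**Figure D4:**
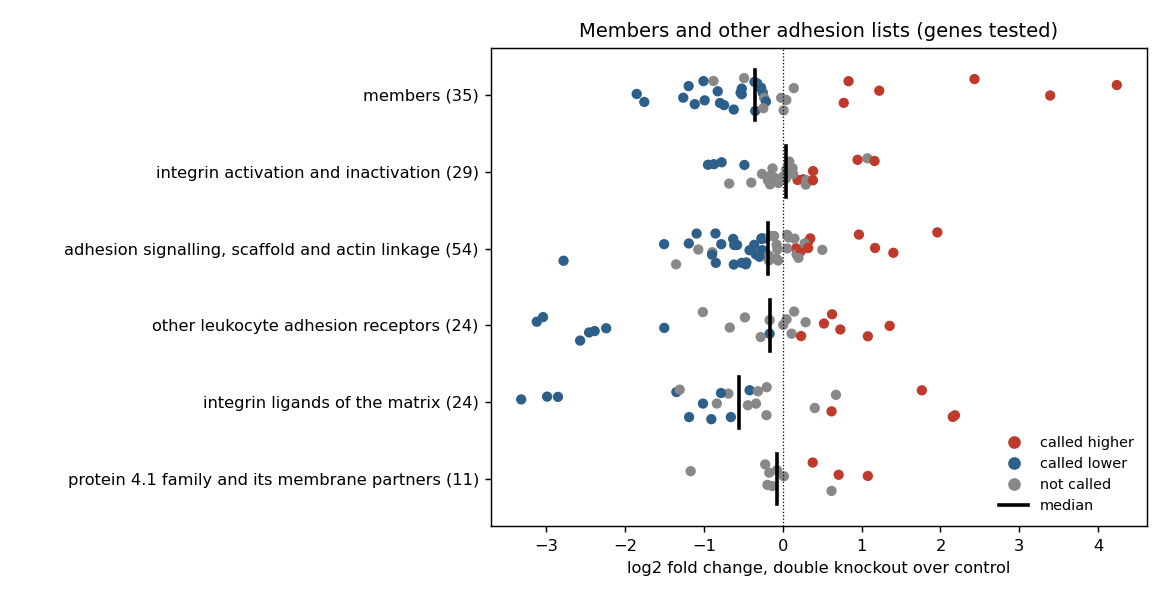
Log2 fold change, double knockout over control, of the members and of 5 lists of other adhesion genes, each point 1 gene tested, with the number of genes in brackets and the median as a black bar. Red was called higher, blue lower and grey not called; the medians of members (-0.35) and matrix ligands (-0.55) lie farthest below 0.

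Within groups the same libraries were often at the extremes. Double knockout 2 held the highest value of its group for 19 of the 35 members tested (54.3%, against 24.5% of all genes tested), and control 4 for 17 (48.6% against 30.9%). Control 1 held the lowest control value for 16 (45.7% against 28%). Double knockouts 1 and 2 both exceeded 3 and 4 for 12 members (34.3% against 22.1% of all genes), among them Itgb1, Itgb2, Itgb5, Itgal, Itga9 and Icam1, and both lay below for 2, Parvg and Ptk2b.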

How the data were processed

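A Kapa kit for mRNA and a NovaSeq X sequencer were used, per the labels' protocols. Salmon 1.4.0, DESeq2 and the build mm10 are named in the submitters' processing notes; the annotation release is not stated. The deposited signal is 1 normalized read count per gene and library. Undoing a size factor for each library made 100% of values whole within 0.01 in all 8, and edgeR 4.0.16 on those recovered reads called 2593 genes higher and 2786 lower, DESeq2 1.42.0 2787 and 2891. The main test was limma 3.58.1 (R 4.3.3; eBayes with trend and robust, genotype only, both directions) on log2(value + 1), with the filter and threshold given above, and it called 2671 genes higher and 2773 lower. Other pseudocounts, filters and scalings, a replicate block and left-out libraries were alternatives. As a check of the code only, the fit was run on simulated reads with fewer changed genes and the same dispersion for every gene. Exon lengths and coordinates are from GENCODE M21 (mm10). Protein sequences were not used here. Members and lists were chosen with earlier results of these data known. All members are named, with library values for integrin chains and members changed 2-fold; each other list gives up to 4 genes by smallest adjusted p, plus the largest change against the majority of calls.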

Additional observations from a re-analysis of the deposited data

Results flagged for a closer look

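In 3 of 72 groups of 4 values examined for the members, 1 library lay far from the other 3, by the ratio of its gap to the whole range. Chance gives about 5% of groups. Itgav had such a library among the double knockouts (ratio 0.893), where library 2 was lowest, at 6112 against 6688 to 6757. Fermt3 had one among the controls (0.865), where library 1 was lowest, at 5249 against 5939 to 6046. Icam2 had one among the controls (0.931), where library 3 was highest, at 345 against 267 to 272.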

How the results depend on the processing

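Under 21 alternatives the members called higher numbered 6 or 7 and those called lower 17 to 20, and no called member changed direction. Of the 35 tested, 31 kept their call or lack of one under every alternative that tested them, and Itgam, Itgb5, Zyx and Parvg did not, with the values given above. With the replicate number as a block, 6 members were called higher and 20 lower, and 2215 and 2434 of all genes. Same-numbered libraries did not deviate together (correlations -0.0535 to 0.0316, against -0.191 to 0.146 between differently numbered ones). Whether the numbers stand for a shared preparation is not stated, and the main test used no pairing. Leaving out 1 library at a time gave 6 members higher and 19 to 20 lower, and 2277 to 2616 higher and 2392 to 2717 lower genes in all. Quantile normalization moved the median of all genes to 0.05 and called 6 and 20 members. The edgeR test called 6 and 20, and DESeq2 7 and 20. Itga1, Parva and Bcar1 have values near 10 reads, where counting error is large and small changes are hard to detect.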
